A study of Arabidopsis thaliana with 22 samples.

Results

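Histone H3 trimethylated at lysine 4 (H3K4me3) was compared between cauliflower apices of Arabidopsis thaliana, accession Ler, before and 2 days after activation of the floral regulator APETALA1 (AP1). Of the series' 22 samples, 16 are ChIP-seq libraries with an island table, and the 4 described here were chosen by mark and tissue, 2 replicates of apex t0 and 2 of apex t2, each t2 library being set against the t0 library of the same replicate number. All 4 came from ap1-1 cal-1 plants carrying 35S::AP1:GR, so the controls carry both mutations and the transgene too. Apex t0 was untreated, and apex t2 was collected 2 days after the apices received 10 µM dexamethasone with 0.015% Silwet, applied a second time after a short interval. The series holds no mock-treated apices. Dexamethasone, Silwet, 2 days of growth and AP1 activation therefore cannot be told apart in any change between t0 and t2. The 35S promoter drives the AP1:GR fusion throughout the plant rather than in the cells that normally express AP1. Rosette leaves and inflorescences of wild-type Ler (flowers past stage 12 removed) served below only as outside reference libraries for the genes found here, as did the H3K27me3 libraries of the same apices.

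H3K4me3 lies at the start of genes that are transcribed or ready to be transcribed, and H3K27me3 is the mark that Polycomb complexes place on repressed developmental genes. In ap1 cal plants the shoot produces inflorescence meristems over and over in place of flowers. Dexamethasone lets the AP1:GR protein enter the nucleus, and the meristems then start to form flowers together. AP1 is known both to shut down genes of the flowering-time pathway in the young flower and to switch on genes that give floral organs their identity.

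Island reads numbered 10707862 and 22051140 in the t0 libraries and 14763262 and 20338186 in the t2 libraries, in 15232 to 15961 islands per library (replicates 1 and 2). The t2 library was thus the deeper of the pair in replicate 1 and the shallower in replicate 2. Per the labels' protocols the replicates also differed in sonication, antibody lot, library preparation and sequencer, and the second replicate was a pool of several ChIP reactions. Of the 8 meristem maintenance genes, 6 were marked in all 4 libraries, and the list's summed H3K4me3 was 630.0 to 636 RPM at t0, 607 to 633.5 at t2 and 253 to 290.1 in leaf. The stem cell gene CLV3 had no island in any of the 4 apex libraries, and WUS had one in replicate 2 of each stage alone. None of the 8 root and seed genes carried an island, while all 21 photosynthesis genes were marked at t0, with a summed level of 1230.1 to 1505.5 RPM against 1955 to 2463 in leaf.

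The level of a gene is given as RPM, the ChIP reads of the islands over its body scaled to the island reads of the library (reads per 1000000 island reads, after TMM scaling for H3K4me3). Values are listed for replicate 1 and then replicate 2. Of 27444 protein-coding genes, 16313 had islands over at least 200 bp of the body in all 4 libraries and were tested with limma on log2(RPM + 1), with stage and replicate number in the model. At an adjusted p under 0.05, 89 genes were higher and 151 lower at t2, which is 0.546% and 0.926% of the genes tested. The changes ran from 0.39 to 1.69 on the log2 scale among the higher genes and from -0.39 to -1.88 among the lower ones, with medians of 0.57 and -0.63, against a median of -0.01 over all genes tested. The direction was the same in both pairs for 232 of the 240, and for 45.3% of all genes tested. Genes were called on the mean of these same pairs, so the agreement among the 240 largely follows from how they were picked. Over all genes tested the changes of the 2 pairs were only weakly correlated (r = 0.0976). Both pairs moved by more than 0.5 for 19 of the higher and 66 of the lower genes. Among all genes tested, 26 rose and 80 fell by more than 0.5 in both pairs, while 30 did so in opposite directions (18 and 12).

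These calls rest on the pairing of the replicates. Without the replicate number in the model 0 genes passed (limma, 224 with an unadjusted p under 0.05). The calls also depended on which libraries were fitted. With leaf and inflorescence added and the replicate number kept, 0 passed, a result that does not bear on the pairing. That fit kept all 16313 genes and took a missing island in leaf or inflorescence as 0 RPM. Each gene by itself has 1 residual degree of freedom, so its standard error comes almost wholly from the spread shared by all genes. An exact permutation test of 1 gene with 2 libraries against 2, ignoring the pairs, cannot go below p = 0.333. With the pairs kept, the floor of such a test is higher. Without scaling between libraries (TMM) the split was 138 higher and 149 lower. In 6 alternative ways of counting and scaling within the paired fit, 96 of the 240 kept their call each time, 17 higher and 79 lower. Genes called higher numbered 45 with 500 bp added on each side and 57 over merged island regions. In a further alternative, a missing island counted as 0 RPM, which brought genes with such zeros into the fit, and 26 of the 240 kept their call, 4 higher and 22 lower. Of the 33 called genes that are on a list or among the 10 largest changes each way, ATH1, CAD5, AT3G49830, AT4G21445, LSH1, LSH4, TOE3, BT5, FAF1, FAF3 and AT1G66760 passed there, and the other 22 did not, SPL15, SPL9, FD, FDP, TOE1, LFY, AIL6, LSH3 and GA20OX1 included.

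**Figure D1:**
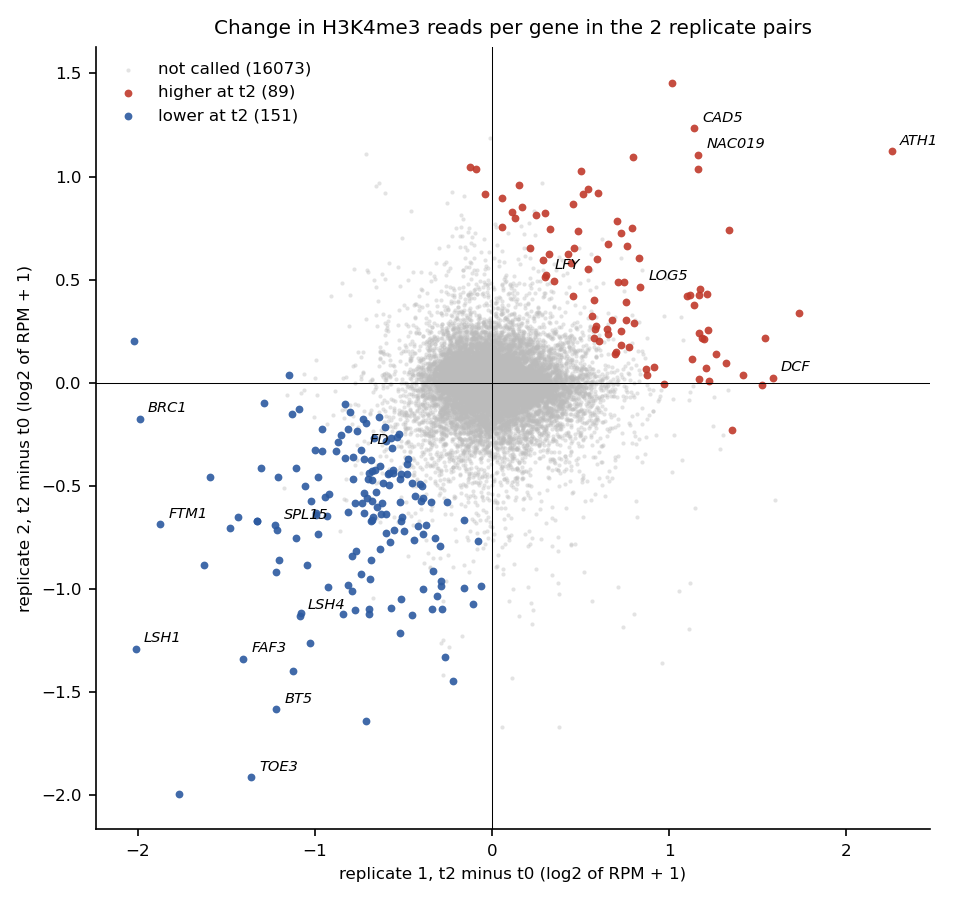
Change in H3K4me3 reads per gene (t2 minus t0, log2 of RPM + 1) in replicate 1 (x axis) and replicate 2 (y axis), one point per gene, for the 16313 genes tested, with the 89 genes called higher in red and the 151 called lower in blue. ATH1 stands alone at the upper right, while TOE3, LSH1, BT5 and FAF3 form the lower left edge, and some called genes such as DCF and BRC1 changed almost wholly in replicate 1.

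Several flowering-time genes that are known to be repressed in young flowers had less H3K4me3 at t2. Of the 17 genes on this list 14 were tested, 6 were lower and none was higher, against 0.926% lower among all genes tested. All 14 had a negative change, with a list median of -0.33 against -0.01 over all genes. Over the 16313 genes tested, 8678 had a change of 0 or below. This list, like the others, was chosen with earlier results of these data known, so its counts are descriptions. TOE3, an AP2-like floral repressor, carried 28.2 and 57 RPM at t0, against 10.4 and 14.4 RPM at t2. Both t2 libraries lay below both t0 libraries, an order that 9.91% of all genes tested showed (9.42% showed the reverse), with a change of -1.64 ± 0.19 (limma adjusted p = 1.84e-10). In bulk tissue, less of the mark in each cell and fewer cells that carry it cannot be told apart, here and in every comparison that follows. At t0 its island covered chromosome 5 from 26803201 to 26804000 in replicate 1 and from 26802001 to 26804000 in replicate 2 (TAIR10), and at t2 it had shrunk to 26803601 to 26804000 in both.

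SPL15 and SPL9, SBP-domain transcription factors that promote the floral transition at the shoot apex, were lower too. SPL15 had 41.6 and 57.1 RPM at t0, against 17.2 and 35 RPM at t2, a fall in both pairs (-0.96 ± 0.16, adjusted p = 6.72e-06). SPL9 had 101 and 105 RPM at t0, against 70.5 and 77.1 RPM at t2 (-0.48 ± 0.11, adjusted p = 0.00534). The groups did not overlap for either gene. FD encodes the bZIP partner of the florigen FT, and carried 113 and 110.3 RPM at t0, against 67 and 87.9 RPM at t2 (-0.53 ± 0.12, adjusted p = 0.00179). Its close relative FDP had 74 and 73.8 RPM at t0, against 49.6 and 59 RPM at t2 (-0.44 ± 0.11, adjusted p = 0.0137). TOE1, the other AP2-like repressor called, had 105 and 105.5 RPM at t0, against 65.2 and 81.3 RPM at t2 (-0.53 ± 0.11, adjusted p = 0.00159). In all 3 of these genes the higher t2 library was replicate 2, which still lay under both t0 libraries.

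The other MADS-box and repressor genes of the list did not pass the test. The floral repressor SVP changed by -0.25 ± 0.13, its relative AGL24 by -0.23 ± 0.14, and SOC1, the integrator of flowering signals, by -0.13 ± 0.12. SMZ changed by -0.32 ± 0.22 and TEM1 by -0.09 ± 0.11. TFL1, which keeps the inflorescence meristem from turning into a flower, had no H3K4me3 island in any of the 4 libraries, nor had TEM2 and SNZ.

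**Figure D2:**
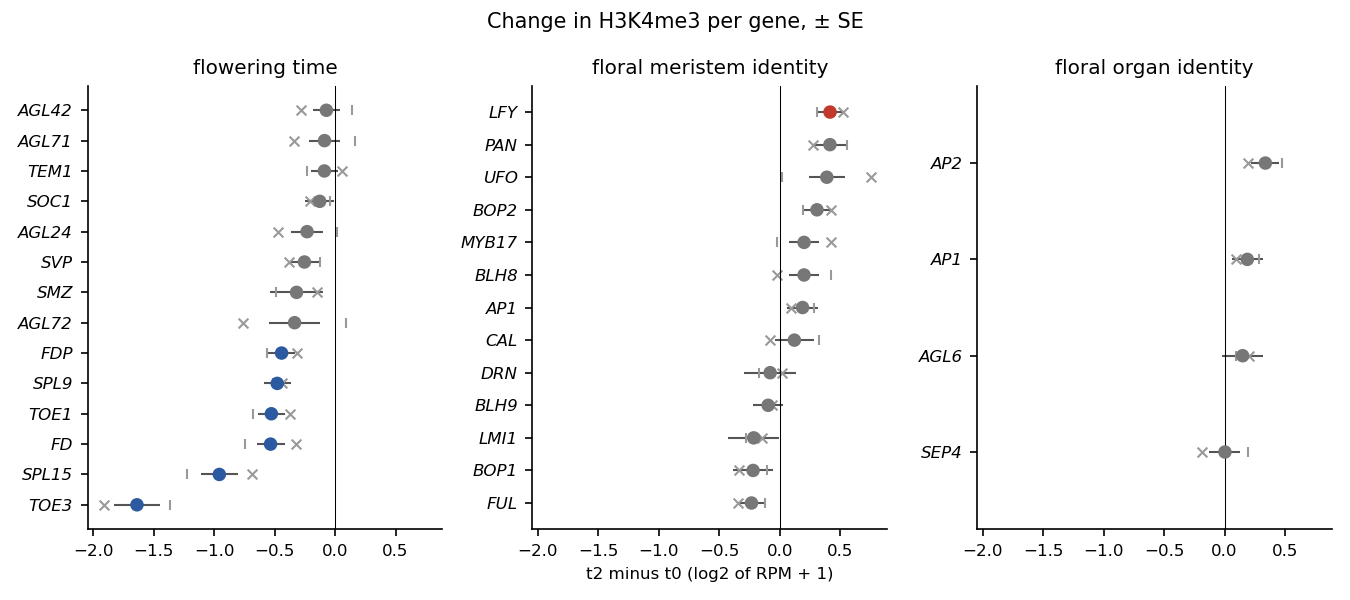
Change in H3K4me3 (t2 minus t0, log2 of RPM + 1) for the tested members of 3 lists, as the mean of both pairs (circle) with its standard error (line), with the pair of replicate 1 as a vertical tick and that of replicate 2 as a cross. Blue circles are genes called lower, red called higher and grey not called, and the 14 flowering-time genes all lie left of 0.

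Over gene bodies, LFY was the single gene called among those that give the young flower its identity. Of the 15 floral meristem identity genes 13 were tested, 1 was higher and none lower, with 0.546% higher among all genes. Their median change was 0.19, with 8 of 13 positive, against 7635 of the 16313 genes tested. LFY, the master regulator of floral meristem fate, carried 83.3 and 70.0 RPM at t0, against 103 and 101 RPM at t2. Both t2 libraries lay above both t0 libraries, by 0.42 ± 0.11 (adjusted p = 0.028), but with 500 bp added on each side of the gene the adjusted p was 0.1. LFY had islands at both ends of the locus, chromosome 5 from 24844201 to 24845600 in all 4 libraries and a second one from 24846601. Reads in the first rose from 729 to 1366 in replicate 1 and from 1222 to 1779 in replicate 2, and those in the second from 684 to 847 and from 1336 to 1228, in libraries of unequal depth.

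PAN, a bZIP factor acting in floral organ number, had 30.9 and 48.9 RPM at t0, against 45.9 and 59.4 RPM at t2 (0.41 ± 0.13, adjusted p = 0.113). UFO, the F-box partner of LFY, had 37.7 and 28.9 RPM at t0, against 38.3 and 49.5 RPM at t2 (0.39 ± 0.15, adjusted p = 0.312). Its whole island region, which extends beyond the gene body, changed by 0.68 and passed (adjusted p = 0.000346). With 500 bp added on each side UFO passed too (0.68, limma adjusted p = 0.0215), where LFY did not. FUL, which AP1 is known to repress in young flowers, changed by -0.23 ± 0.11 without passing. AP1 itself had 97 and 124 RPM at t0, against 118 and 133 RPM at t2 (0.19 ± 0.13, adjusted p = 1.00) and CAL 20.1 and 44 RPM at t0, against 25.4 and 41.5 RPM at t2. Both the ap1-1 locus and the AP1:GR transgene can give reads over AP1, and the island tables do not separate these sources.

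Among the 13 floral organ identity genes only 4 carried H3K4me3 in both t0 libraries, against 8 in both t2 libraries. Over all 27444 protein-coding genes these numbers were 16531 and 16583. Of the 4 libraries t0 replicate 1 was the shallowest, and the part of depth here was not tested. The 4 tested, AP1, AP2, SEP4 and AGL6, changed by 0.00 to 0.34 and none passed, although AP2 did over its merged island region (0.34, adjusted p = 0.0254). AP3, which specifies petals and stamens, and SEP1, a cofactor for all floral organs, had no island at t0 and one in each t2 library. AP3 stood at 13.7 and 26.4 RPM at t2 (chromosome 3, 20120401 to 20121200 in both) and SEP1 at 12.8 and 16.8 RPM (chromosome 5, 5153401 to 5154000 in both). The level of PI, the partner of AP3, was 0 and 11 RPM at t0, against 14.1 and 28.3 RPM at t2. SEP2 had 0 and 26.3 RPM at t0, against 21 and 35.1 RPM at t2, and SEP3 was marked in t2 replicate 2 alone, with 27.1 RPM. PI and SEP2 were thus already marked in the deeper t0 library, and only AP3 and SEP1 gained islands in both pairs. AG, SHP1, SHP2 and STK, the carpel and ovule genes, had no island in any of the 4 libraries.

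**Figure D3:**
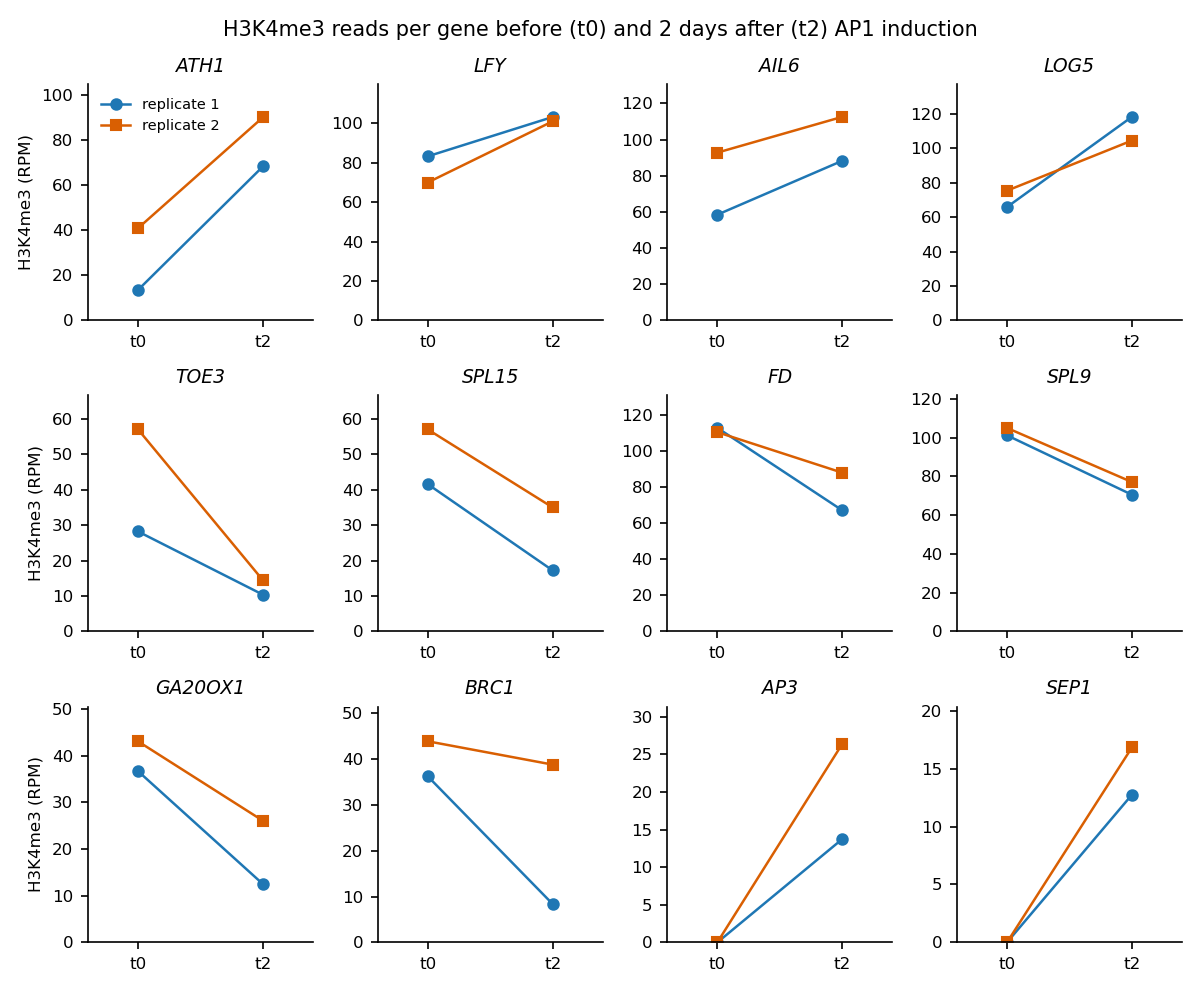
H3K4me3 reads per gene (RPM, y axis from 0) at t0 and t2 for 12 genes, with circles for replicate 1 and squares for replicate 2 joined within a pair, where 0 means that no island was called. ATH1, LFY, AIL6 and LOG5 end higher in both pairs, TOE3, SPL15, FD, SPL9 and GA20OX1 lower in both, BRC1 lower mainly in replicate 1, and AP3 and SEP1 start from 0.

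The largest gain among tested genes was on ATH1, a BELL-class homeodomain gene of the shoot apex that restrains stem elongation. It carried 13.5 and 40.9 RPM at t0, against 68.4 and 90.2 RPM at t2, a rise of 1.69 ± 0.15 (adjusted p = 8.67e-17). Its island widened from chromosome 4, 15916201 to 15916800, to 15915401 to 15917800 in replicate 1, and from 15915601 to 15917800 to 15915201 to 15917800 in replicate 2. The neighbouring AT4G32990 also rose (1.24 ± 0.24). Next came CAD5, a lignin-pathway dehydrogenase (18 and 21.2 RPM at t0, against 40.8 and 51.2 RPM at t2; 1.19 ± 0.17), and NAC019, a NAC transcription factor (9.69 and 8.60 RPM at t0, against 23 and 19.7 RPM at t2; 1.14 ± 0.23). In both genes every t2 library stood above every t0 library and the covered length grew, from 800 to 1600 bp in CAD5 and from 400 to 1000 bp in NAC019. RIP3, a ROP GTPase interactor, rose by 1.04 ± 0.18, with 10.7 and 30.4 RPM at t0, against 28.6 and 51.5 RPM at t2. Completing the 10 genes with the largest rise, AT3G49830, AT1G04350, AT1G02040, AT1G79020 and AT5G06980 changed by at least 0.82. The neighbour of AT3G49830, AT3G49840, was called lower (-0.83 ± 0.16). Their islands were separate at t0 and joined at t2, and reads are spread evenly along an island. The part of this spreading in both changes was not tested.

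The rises in AT1G04350 and AT1G79020 came mainly from replicate 1 (1.73 against 0.34, and 1.54 against 0.21) and did not pass over whole merged island regions. Of the 21 organ boundary and growth genes 12 were tested, 1 was higher (AIL6) and 2 lower (LSH3 and LSH4, below), and NGA2 lost its islands. The list median was -0.07, with 7 of the 12 changes negative, against 8678 of the 16313 genes tested at 0 or below. AIL6, which promotes growth of young floral organs, rose (58.5 and 92.8 RPM at t0, against 88.3 and 113 RPM at t2; 0.43 ± 0.11, adjusted p = 0.019). Some further genes were chosen after their values were seen. LOG5 makes active cytokinin, and had 65.8 and 75.4 RPM at t0, against 118 and 104.5 RPM at t2 (0.65 ± 0.11, adjusted p = 3.25e-05). The groups did not overlap. ERL1, a receptor kinase of the ERECTA family, had 28.1 and 60.5 RPM at t0, against 63.2 and 78.7 RPM at t2 (0.76 ± 0.12). Of the 9 LOG genes, 3 were tested and LOG5 alone passed. LOG1, without an island in t0 replicate 1, had 0 and 9.53 RPM at t0, against 19.1 and 21.3 RPM at t2.

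The largest falls included 2 small families of regulators of the shoot apex, which were examined whole after these values were seen. LSH genes encode ALOG-domain proteins that act at organ boundaries. Of the 10 members 6 were tested and 3 were lower, and LSH2 lost its islands, against 0.926% lower and 0.26% lost over all genes. Having been picked for these values, the family supports nothing by its count. LSH1 carried 66.6 and 63.2 RPM at t0, against 15.7 and 25.3 RPM at t2 (-1.65 ± 0.15, adjusted p = 4.66e-15), and its island on chromosome 5 narrowed from 10454001 to 10455600 in both t0 libraries to 10454601 to 10455200 and 10454401 to 10455200 at t2. LSH4 had 60.6 and 76.6 RPM at t0, against 28 and 34.4 RPM at t2 (-1.11 ± 0.13, adjusted p = 1.84e-10). LSH3 had 110.5 and 84.1 RPM at t0, against 79.3 and 64.8 RPM at t2 (-0.42 ± 0.11, adjusted p = 0.0207). All 3 fell in both pairs without overlap between stages, as did 9.91% of all genes tested. LSH2 had 11.8 and 14.9 RPM at t0 and no island at t2. LSH6 went the other way without passing (0.55 ± 0.18, adjusted p = 0.134), and LSH5 and LSH10 changed by -0.05 ± 0.15 and -0.23 ± 0.20.

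FAF genes limit the size of the shoot meristem. FAF3 had 55.4 and 63.6 RPM at t0, against 20.2 and 24.5 RPM at t2, and FAF1 32.1 and 49.8 RPM at t0, against 15.2 and 20.2 RPM at t2. Both were lower at t2, by -1.37 ± 0.15 (adjusted p = 7.01e-12) and -1.15 ± 0.18 (adjusted p = 1.78e-06), with each t2 library under each t0 library. In FAF3 the covered length stayed near 1000 bp and the change was one of density, -1.28 ± 0.17 in reads per covered kb. FAF4 had 16.0 and 37.4 RPM at t0 and no island at t2. FAF2 was at 14.5 and 50.5 RPM at t0, against 16.9 and 24.9 RPM at t2 and did not pass (-0.39 ± 0.19).

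**Figure D4:**
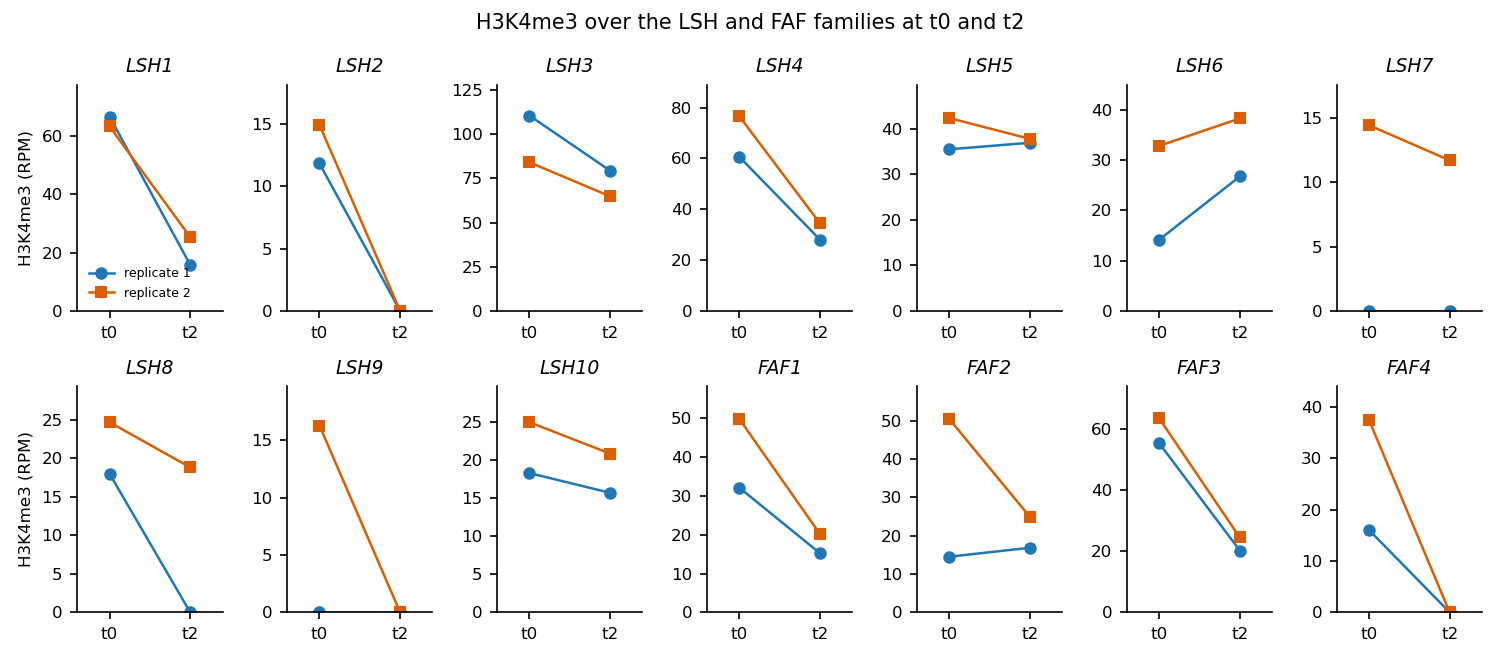
H3K4me3 reads per gene (RPM, y axis from 0) at t0 and t2 for all 10 LSH and all 4 FAF genes, with circles for replicate 1 and squares for replicate 2 joined within a pair, where 0 means that no island was called. The called genes LSH1, LSH3, LSH4, FAF1 and FAF3 and the genes that lost their islands, LSH2 and FAF4, fall in both pairs, while LSH6 rises in both and LSH5 and FAF2 differ between pairs.

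The remaining genes among the 10 largest falls were AT4G21445 (-1.88 ± 0.18), BT5, a BTB and TAZ domain protein (-1.40 ± 0.14), FTM1, a desaturase gene of the floral transition (-1.28 ± 0.15), QWRF4 (-1.26 ± 0.22), AT1G66940 (-1.25 ± 0.20) and AT1G66760 (-1.18 ± 0.15). BT5 had 67.2 and 69.7 RPM at t0, against 28.3 and 22.6 RPM at t2, with no overlap between stages. FTM1 had 52.5 and 88.7 RPM at t0, against 13.6 and 54.8 RPM at t2, so that its t2 replicate 2 was above its t0 replicate 1. AT4G21445 fell while its neighbour AT4G21450 rose by 0.77 ± 0.11. The same island lay over both genes at t0, while at t2 they lay under separate islands, and reads are spread evenly along an island. The part of this splitting in both changes was not tested. Over the merged island region of the neighbours the change did not pass. In 5 such regions neighbouring genes were called in opposite directions (10 genes), and 64 of the 240 called genes shared a merged region with another tested gene, as did 24.7% of all genes tested. AT3G22125 and AT3G22142 overlap and had the same values, so they are 1 result.

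Among tested genes on the gibberellin, auxin and cytokinin lists, 4 were lower at t2 and none was higher. The cytokinin gene LOG5, called higher above, is not on these lists. GA20OX1, a gibberellin biosynthesis gene, was the 1 of 6 tested gibberellin genes that passed, against 0.926% lower among all genes tested (36.7 and 43.1 RPM at t0, against 12.5 and 26.1 RPM at t2; -1.09 ± 0.18, adjusted p = 7.29e-06). In the auxin list 2 of 16 were lower, beside the same background of 0.926%. These were the transporter gene PIN3 (122 and 105 RPM at t0, against 73 and 92.4 RPM at t2; -0.45 ± 0.12, adjusted p = 0.0206) and the biosynthesis gene TAA1 (16.2 and 44.2 RPM at t0, against 11.6 and 19.7 RPM at t2; -0.79 ± 0.20, adjusted p = 0.0157). PIN3 did not overlap between stages, whereas TAA1 did, its t2 replicate 2 lying above t0 replicate 1. The type-A response regulator ARR5 was the 1 of 13 tested cytokinin genes called, again beside 0.926%, and was lower by 0.80 (14.6 and 38 RPM at t0, against 12 and 14.5 RPM at t2; adjusted p = 0.0295), and most of its fall was in replicate 2. With 500 bp added on each side the change of ARR5 was -0.30 (adjusted p = 1.00). Over merged island regions the cytokinin genes ARR7 (-0.60, adjusted p = 1.31e-07) and CKX7 (-0.35, adjusted p = 0.0184) passed as lower, which they did not over the gene body. PIN3, TAA1 and ARR5 no longer passed with scaling factors from 8 libraries, nor did AT1G02040 among the rises named above. BRC1, the brake on axillary bud growth, and GL2, a homeobox gene of epidermal cell fate, were again picked after their values were seen. BRC1 had 36.2 and 43.9 RPM at t0, against 8.37 and 38.8 RPM at t2 (-1.08 ± 0.19), nearly all from replicate 1. GL2 had 74.2 and 65.7 RPM at t0, against 35.4 and 35.1 RPM at t2 (-0.97 ± 0.12), with both t2 libraries under both t0 libraries. Its covered length shrank while its read density changed by 0.70 ± 0.14, and over the whole merged island region it did not pass.

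The meristem maintenance list held no called gene, while FAF1 and FAF3, which are not on it, were lower as given above. None of the 6 tested meristem maintenance genes passed, with a median of -0.03. STM had 74.7 and 101 RPM at t0, against 81.3 and 99.2 RPM at t2 and KNAT1 82 and 94.3 RPM at t0, against 79.9 and 86.9 RPM at t2. None of the 12 cell division genes, 10 organ polarity genes, 6 gynoecium genes, 6 anther genes or 20 photosynthesis genes tested passed either. In other intervals CYCD3;2, a cyclin gene, passed as lower with 500 bp added on each side (-0.41, adjusted p = 0.0157), and the anther gene ROXY1 as higher over its merged island region (0.54, adjusted p = 0.0295). Over gene bodies the lists' medians were 0.00, 0.01, 0.19, 0.06 and -0.06. All 6 gynoecium genes had a positive change, SPT among them (0.26 ± 0.11), against 7635 of the 16313 genes tested. Of the 20 photosynthesis genes 16 had a negative change, against 8678 of all genes tested at 0 or below.

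A change in reads can come from wider islands or from denser ones. Covered length changed in the same direction as reads in 80 of the 89 higher and 145 of the 151 lower genes, and density (reads per covered kb) in 73 and 120. Reads are the product of covered length and density, so these counts largely follow from picking genes by their reads. The shares over all genes tested were not counted, and the counts are descriptions only. The median changes in density were 0.24 and -0.26, and those in covered length 0.36 and -0.43. Tested for density alone, 42 genes were higher and 31 lower (0.257% and 0.19% of those tested), of which 14 and 15 were also called in reads. FAF3, LSH1 (-0.89 ± 0.16) and LSH4 (-0.83 ± 0.17) fell in density past the threshold, and LOG5 rose (0.58 ± 0.14), while the density of TOE3 changed by -0.05. The covered-length test called 345 genes, but in 335 of them both pairs changed by exactly the same factor, since islands grow in steps of 200 bp. Those calls reflect a spread of 0 between the pairs and are not used.

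Genes without an island in one stage were counted rather than tested. In both pairs 14 genes gained an island (0.147% of the 9528 genes with none at t0) and 43 lost theirs (0.26% of the 16531 marked in both t0 libraries). Single pairs gave 276 gains and 180 losses in replicate 1, and 94 gains and 445 losses in replicate 2, so gains were more frequent where t2 was the deeper library and losses where t0 was. The part of depth in these counts was not tested. The order of the pairs was opposite for 28 genes, 25 gained in replicate 1 and lost in replicate 2 and 3 the reverse.

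**Figure D5:**
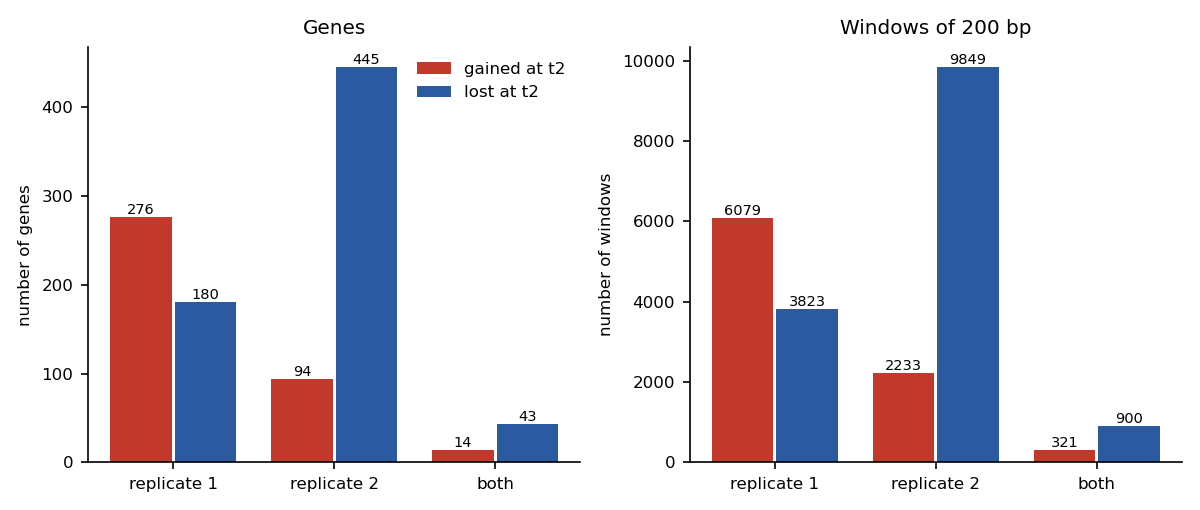
Number of genes (left) and of 200-bp windows (right) that gained or lost an H3K4me3 island at t2, in replicate 1, in replicate 2 and in both. Gains exceed losses in replicate 1, losses exceed gains in replicate 2, and in both pairs together 14 genes and 321 windows were gained and 43 genes and 900 windows lost.

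Beside AP3 and SEP1, the genes that gained islands with the highest t2 levels were AT1G47610 (39.7 and 39.1 RPM), AT1G73325 (25.3 and 31.8 RPM), AT1G68780 (16.2 and 31.1 RPM) and LAP6 (21.2 and 22.2 RPM). Since reads are spread evenly along an island, a gene can take its level from an island centred on a neighbour. The t2 islands over AT1G73325 (chromosome 1, 27566401 to 27568000 and 27566401 to 27568200) were widened forms of the t0 island over AT1G73320 (27566401 to 27567400). The t2 island of LAP6 overlapped a t0 island in replicate 2, and those of the other 12 genes overlapped none. Among the 43 losses, 4 genes shared an island in this way in both pairs, AT1G79780 among them, and 39 in neither. LAP6 encodes an enzyme of the pollen wall precursor sporopollenin. AT1G75490, SRS4, AT4G38860 and AIRP2 complete the 10, with 8.96 to 21.0 RPM. SRS4 belongs to the SHI-related family of style and stamen development. Of these, AT1G47610 gained the longest stretch, 1000 bp on chromosome 1 from 17504801 to 17505800. The other 4 genes gained, CYP705A9, UGE5, MSS1 and NAC6, had at most 12.6 RPM.

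The 10 genes with the highest t0 levels among the losses included AT2G20670 (29.1 and 28.2 RPM), AT3G50270 (23.5 and 30.4 RPM), AT5G24580 (13.0 and 40.3 RPM) and FAF4. ZFP8, a zinc finger gene of trichome formation on inflorescence organs, had 19.6 and 39.2 RPM, SOFL1, a gene of cytokinin response, 22.3 and 25.9 RPM, and GNC, a GATA factor of greening, 12.9 and 34.4 RPM. NGA2, a regulator of lateral organ margins, had 21.1 and 27.1 RPM on chromosome 3 between 22951401 and 22952600. AT1G75900 and AT1G79780 complete the 10. Losses were from weakly marked genes, with a median t0 level of 15.5 RPM against 52.8 RPM over all genes marked in both t0 libraries. The paralogue NGA1 went the other way in both pairs (0 and 16.7 RPM at t0, against 11 and 32.1 RPM at t2) and was not tested for want of an island in t0 replicate 1, and NGA3 had no island in the 4 libraries. GIS2, a relative of ZFP8 with a like role, also lost its islands (12.6 and 22 RPM at t0).

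In windows of 200 bp, 84171 of the 109371 windows under any of the 4 libraries' islands (76.96%) lay in islands of all 4. In both pairs 321 windows (0.293%) were gained and 900 (0.823%) lost, in 244 and 637 separate runs. Most widened or trimmed an existing island. Of the gained windows 246 lay in t2 islands that overlapped a t0 island in both pairs, and of the lost ones 708 lay in t0 islands that overlapped a t2 island. The longest gained runs were 1000 bp, over AT1G47610 and the phosphate transporter gene PHT1;4, and the longest lost run was 1400 bp over AT2G20670 (chromosome 2, 8912201 to 8913600). LOG1 gained 800 bp on chromosome 2 from 12081601. Within windows marked in all 4 libraries the read density rose by more than 0.5 (log2) in both pairs in 59 and fell in 63, while 87 moved by that much in opposite directions (9 and 78).

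Libraries not used in the comparison were then read for the same genes. Of the 14 genes gained, 5 were marked in both wild-type inflorescence libraries (35.7%), against 1.83% of all genes with no t0 island, and 7 in both leaf libraries (50.0% against 4.57%). The 5 were AP3, SEP1, AT1G47610, AT1G68780 and AT4G38860. AP3 had 16.7 and 50.8 RPM and SEP1 31.3 and 43.8 RPM in the inflorescence and neither had an island in leaf. Of the 43 genes lost, 17 were marked in both inflorescence libraries (39.5% against 95.1% of all genes marked at t0) and 18 in both leaf libraries (41.9% against 89.9%). Neither background was matched for level, here or for H3K27me3 below. The median t2 level was 15.4 RPM in the gained genes, against 0 RPM in their background. At t0 it was 15.5 RPM in the lost genes, against 52.8 RPM. These shares thus partly follow from how the genes were picked and are descriptions only. LSH1 and FTM1 had no island in the inflorescence or in leaf. Among genes marked in all 4 of these libraries, the inflorescence level exceeded that of leaf in 31 of 68 higher and 46 of 96 lower genes, against 7223 of 14666 of all genes tested.

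H3K27me3 islands lay in both t0 libraries on 73 of the 151 lower genes (48.3%) and on 16 of the 89 higher genes (18.0%), against 9.38% of all genes tested, and on 30 of the 43 genes that lost their islands (69.8%, against 9.94% of those marked at t0). They also lay on 10 of the 14 genes that gained islands (71.4%), against 58.3% of the genes with no H3K4me3 island at t0. Among genes with H3K27me3 in both t0 and both t2 libraries the median change in H3K27me3 was -0.22 for 15 higher genes, 0.02 for 71 lower genes and -0.03 for 1455 genes tested (log2 of RPM + 1, scaled to island reads only). More H3K27me3 at t2 was seen in 2 of the 15 higher genes, 43 of the 71 lower genes and 560 of the 1455 (38.5%), and LFY and AIL6 were among the higher genes that had less. At LFY, H3K27me3 stood at 73.9 and 47.4 RPM before induction, against 51.4 and 42.9 RPM at t2. At AP3 it stood at 178 and 144 RPM, against 155 and 123 RPM at t2. LSH3 had no H3K27me3 island at t0 and 24.9 and 23.6 RPM at t2. These H3K27me3 values are descriptions, with no test.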

How the data were processed

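Apex H3K4me3 ChIP-seq libraries (2 at t0, 2 at t2) were read from the authors' deposited island tables. Islands came from SICER 1.1 on TAIR10, and the submitters' processing notes also name BWA 0.6.2-r126, bedtools 2.17.0-97, CASAVA 1.8.2, Picard 1.93 and, for alignment files, SAMtools 0.1.19. The SICER settings are not given in the sources used here. Islands were called per library, and the t0 and t2 libraries of one replicate shared a control. The deposited ChIP read numbers per island were spread evenly over the island and summed over each protein-coding gene body, then divided by island reads (RPM). Genes with at least 200 bp covered in all 4 libraries were fitted with limma 3.58.1 (R 4.3.3) on log2(RPM + 1), with TMM factors from the 4 libraries, stage and replicate number, and Benjamini-Hochberg adjustment over 16313 genes. No count model was used. Values after ± are limma's moderated standard errors, drawn mainly from the spread shared by all genes.

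The replicate number marks a shared batch per the labels' protocols, and deviations of same-numbered libraries correlated across genes (r = 0.637). The t2 minus t0 changes of the 2 pairs correlated far less (r = 0.0976), and genes are not independent replicates in either value. No label says whether replicates came from separate plants, so p-values measure the spread between these libraries, which may be technical. Gained or lost means an island over at least 200 bp of the body in both libraries of one stage and none in the other. Named genes were the 10 largest changes each way, the 10 highest gained and lost, and members of 14 lists. Genes, lists and tests were chosen with earlier results of these data known.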

Additional observations from a re-analysis of the deposited data

How the results depend on the processing

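The calls on reads depended on the replicate block. Without it 0 genes were called by limma (224 at an unadjusted p under 0.05). The fits of 8 libraries also gave 0, with the replicate block (232 unadjusted) and without it (96 unadjusted). On reads, these fits took a missing island in leaf or inflorescence as 0 RPM. Leaving out each apex library in turn from the 8-library fit also gave 0 to 0 calls, with 139 to 464 at an unadjusted p under 0.05. Density calls fell from 73 to 0 without the replicate block (219 unadjusted) and were 0 in the 8-library fit and in each of its leave-one-out fits (227 to 539 unadjusted). Covered length gave 49 calls in the 8-library fit and 143 to 404 with a library left out. The 240 calls on reads became 152 with TMM factors from 8 libraries, a setting chosen after seeing the data, and 26 when a missing island counted as 0 RPM. No TMM, a pseudocount of 5, a mean of at least 20 RPM, 500 bp added on both sides and merged regions gave totals within 1.5 times the 240, the last 2 also chosen after seeing the data. In these last 2, 137 of 240 and 145 of 233 calls were kept, 2 and 23 of the genes had a change of the other sign, and 45 and 57 genes were called higher in place of 89. With 600 bp of the body required, 8 genes were gained and 27 lost. Replicate 1 alone gave 276 gained and 180 lost genes and 6079 and 3823 windows, and replicate 2 alone gave 94 and 445 genes and 2233 and 9849 windows. In the 8-library fit some directions reversed with an apex library left out. Such a fit leaves 1 library in that stage. Its replicate effect comes from the other stages, leaf and inflorescence included, where a missing island counts as 0 RPM. Between the apex libraries themselves, each gene named here moved the same way in both pairs. Without t0 replicate 1, GA20OX1 was 0.56, FD 0.72 and LFY -1.52. Without t2 replicate 2, GA20OX1 was 0.054, FD 0.45 and LFY -1.65. Without t0 replicate 2, AT1G66760 was 0.029, and without t2 replicate 1, ATH1 was -0.018. The cause was not tested. The planned extension of 500 bp upstream was not run, for want of strand. Depth was lowest in t0 replicate 1, and its part in the gained and lost counts was not tested.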
